A study of Mus musculus with 6 samples.

Results

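Polycomb proteins and DNA methylation enzymes write, read and erase marks that keep genes silent from one cell division to the next. The results concern 10 of their genes, found by symbol in the deposited table of 46983 genes: Ezh1, Ezh2, Cbx2, Cbx7, Dnmt3a, Dnmt3b, Hells, Tet1, Tet2 and Tet3. RNA was sequenced from whole aortic valves of wild type C57BL/6J mice at postnatal day 2 (PND2), when the leaflets still grow, and at 4 months of age, when they are mature. There were 3 libraries per age, each from valves pooled from 5 to 6 mice. No treatment, transgene or deletion was involved, and both ages share strain and genotype. The comparison asks which of these genes differ between the growing and the mature valve. Levels are RPKM, reads divided by the exonic length of a gene and by the total of its library. The length covers all annotated exons, used or not, so levels of different genes compare only roughly. A gene keeps the same length at both ages.

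In Polycomb repressive complex 2 (PRC2), Ezh1 or Ezh2 is the methyltransferase that marks histone H3 for silencing. In canonical Polycomb repressive complex 1 (PRC1), a Cbx protein binds that mark, and Cbx2 and Cbx7 are alternative subunits for this task. Dnmt3a and Dnmt3b place new methyl groups on CpG cytosines, Hells is a chromatin remodeler that helps DNA methylation reach packed DNA, and Tet1, Tet2 and Tet3 oxidize methylcytosine as a step towards its removal. In many tissues Ezh2 is known to be high in dividing cells, while Ezh1 is the form kept in resting cells.

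The 6 library totals ran from 23810507 to 38994657. Counts on the 10 genes ran from 92 reads for Hells in a 4 month library to 11713 reads for Dnmt3a in a PND2 library. The 6 valve mesenchyme genes summed to 5913.11 to 6355.5 RPKM at PND2 and 7612.5 to 9625.95 at 4 months. Of these genes 2 were called higher at 4 months, 3 lower and 1 neither. Muscle markers were abundant too. The 5 cardiomyocyte genes summed to 12313 to 13197 RPKM at PND2 and 5316 to 7594 at 4 months. The 4 smooth muscle genes summed to 7045 to 8127 RPKM and 15929 to 26753 RPKM, above valve mesenchyme at both ages. Endothelial markers were present as well. Xist, the RNA of the inactive X chromosome, stood at 109, 0.0457 and 0.101 RPKM in PND2 replicates 1 to 3 and at 0.154, 110 and 40.8 in those of 4 months, so the pools differed in their share of females within each age.

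All 10 genes were expressed at both ages and passed the filter of 0.1 RPKM in at least 3 libraries, as did 25903 genes in all. By limma on log2(RPKM + 0.1), with Benjamini-Hochberg adjustment over the 25903 genes, Cbx7 and Ezh1 were higher at 4 months. Ezh2, Cbx2, Dnmt3a, Dnmt3b, Hells, Tet1 and Tet3 were lower, and Tet2 did not pass an adjusted p of 0.05. Thus 2 of 10 were called higher and 7 of 10 lower, where 14.7% and 21.1% of all genes tested were called in these directions. With each library scaled by its median log2 ratio the 10 genes gave the same counts, while all genes went from 3810 called higher and 5463 lower to 4601 and 4129. With the per-gene unequal-variance test 3 of the 10 were called lower, and Cbx2, Dnmt3b, Tet1 and Tet3 lost their calls. In each of the 10 the 3 libraries of PND2 lay apart from the 3 of 4 months, which held for 50% of all genes tested. The median log2 fold change was -1.03 over the 10 genes and -0.14 over all genes tested. These are RNA levels in whole tissue, where fewer cells of a type and less RNA per cell cannot be told apart. An exact permutation test of a single gene cannot give a p below 0.1 with 3 libraries against 3.

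**Figure D1:**
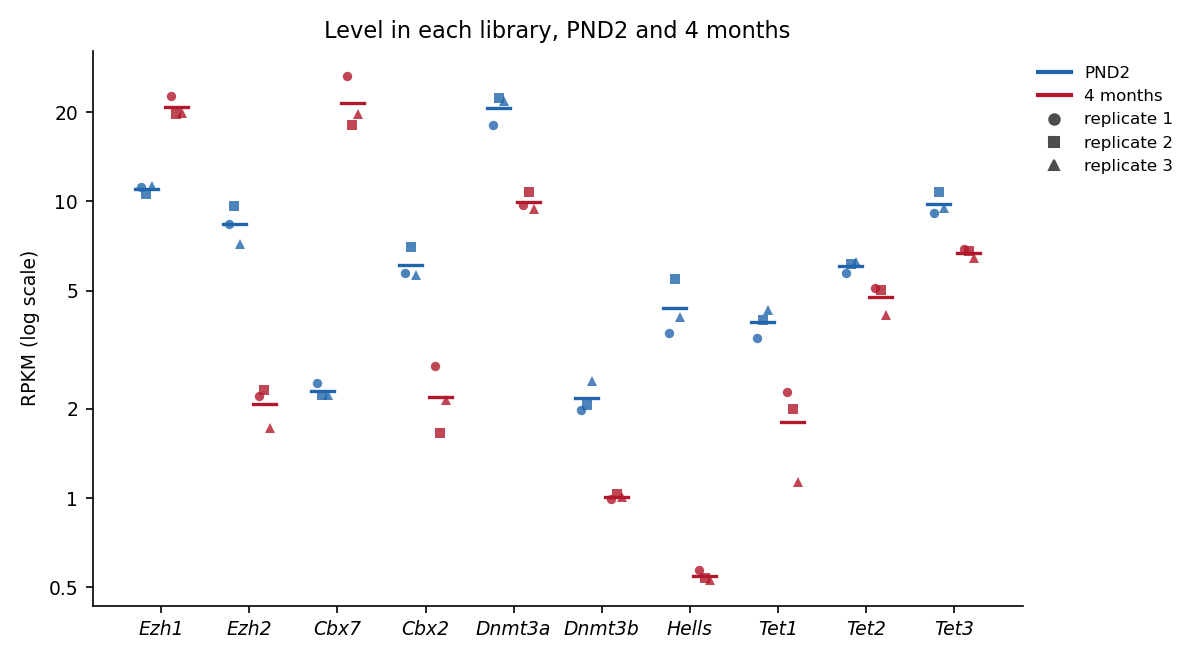
RPKM of each gene in each library on a log scale, for PND2 (blue) and 4 months (red), with 1 point per library and a bar at the mean of 3 libraries. Only Ezh1 and Cbx7 have their 4 month points above those of PND2, and the points of the 2 ages are nearest to each other for Tet2.

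Ezh2 (ENSMUSG00000029687, chromosome 6 of mm10 from 47530139 to 47595341) had 8.39, 9.65 and 7.18 RPKM in PND2 replicates 1 to 3 and 2.21, 2.32 and 1.72 in those of 4 months. Every PND2 library was above 7 RPKM and every 4 month library below 3. PND2 had a mean of 8.41 ± 1.23 RPKM (SD, n = 3) and 4 months one of 2.08 ± 0.320, which is 4.04-fold lower. The log2 fold change was -1.96 (SE 0.19, adjusted p = 0.000447 by limma). Ezh1 (ENSMUSG00000006920, chromosome 11 of mm10 from 101191115 to 101226463) went the other way, from 11.2, 10.6 and 11.2 RPKM to 22.7, 19.7 and 19.9 RPKM, a 1.88-fold rise of the mean. Its log2 fold change was 0.91 (SE 0.11, adjusted p = 0.000916 by limma).

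In gene RPKM Ezh1 was above Ezh2 in every library of both ages, and the gap was wider at 4 months. The order, sum, shares and ratio within an age depend on the lengths, 7440 bases for Ezh1 and 6678 for Ezh2. These cover all annotated exons. Along the main coding transcript, exon means at PND2 ran from 3.87 to 24.3 RPKM for Ezh1 and from 1.73 to 39.5 for Ezh2. At PND2 exons of like width in both transcripts went both ways. Ezh2 had the higher mean for exons of 179, 96, 82, 81 and 85 bases near the 3′ end. It had 22.6, 32.4, 39.5, 31.4 and 33.6 RPKM there, and Ezh1 14.4, 16.1, 17.8, 24.3 and 23.7. Ezh1 was higher for exons of 129, 103 and 126 bases, at 15.9, 19.9 and 18.9 RPKM against 14.1, 13.6 and 15.3. The PND2 order by gene RPKM thus did not hold on every exon, and it was not tested. The summed gene RPKM of Ezh1 and Ezh2 differed less between the ages than either gene did, at 18.4 to 20.2 RPKM at PND2 and 21.6 to 24.9 at 4 months. Ezh1 made up 57.2, 52.3 and 61.0% of that sum in the PND2 libraries and 91.1, 89.5 and 92.0% in the 4 month libraries. The ratio of Ezh1 to Ezh2 was 1.33 ± 0.236 (SD, n = 3) at PND2 and 10.1 ± 1.56 at 4 months. Over the 5 ratios of related genes that were compared, this difference had an exact permutation p of 0.1, the smallest that 3 libraries against 3 allow, and 0.125 after adjustment over the 5 ratios.

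Of the other PRC2 core genes, Eed and Suz12, which the methyltransferase needs for activity, had much smaller differences. Eed stood at 21.2 to 23.8 RPKM at PND2 and 25.6 to 25.9 at 4 months (log2 fold change 0.17, adjusted p = 0.188 by limma). Suz12 was 20.3 to 22.6 RPKM at PND2 and 13.3 to 17.5 at 4 months, a fall of 0.51 on the log2 scale (adjusted p = 0.0204 by limma). The call for Suz12 was lost, and Eed was called higher, when libraries were scaled by their median log2 ratio. Among 5 accessory genes that tether or tune the complex, Jarid2 and Mtf2 fell and Phf1 rose, from 23.2 to 33.6 RPKM at PND2 to 49.0 to 67.8 at 4 months (log2 fold change 1.02, adjusted p = 0.00555 by limma). Phf1 lost its call in the per-gene unequal-variance test.

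Cbx7 had the largest change of the 10 genes. Cbx7 (ENSMUSG00000053411, chromosome 15 of mm10 from 79915807 to 79971119) was at 2.45, 2.22 and 2.23 RPKM at PND2 and at 26.5, 18.1 and 19.7 RPKM at 4 months. Every library of 4 months was above 18 RPKM, and the PND2 libraries lay within 0.3 RPKM of each other. The means were 2.30 ± 0.128 and 21.4 ± 4.43 RPKM, a 9.33-fold rise, and the log2 fold change was 3.15 (SE 0.17, adjusted p = 4.75e-05 by limma). Cbx2 (ENSMUSG00000025577, chromosome 11 of mm10 from 119022962 to 119031270) fell 2.80-fold, from 5.72, 7.0 and 5.66 RPKM to 2.78, 1.66 and 2.13 RPKM, with a log2 fold change of -1.47 (SE 0.23, adjusted p = 0.00281 by limma). The ratio of Cbx7 to Cbx2 went from 0.380 ± 0.0567 to 9.90 ± 0.915 (SD, n = 3), 26.2-fold on the log2 mean (exact permutation p = 0.1, adjusted over the 5 ratios 0.125).

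Cbx6 and Cbx8, which encode further Cbx subunits of PRC1, did not pass the test. Cbx8 had 3.43 to 3.47 RPKM at PND2 and 2.56 to 2.87 at 4 months. Cbx6 was more abundant than Cbx2, Cbx7 and Cbx8 at both ages, at 45.8 to 62.7 RPKM at PND2 and 42.4 to 50.5 at 4 months, although it shares 8.95% of its exonic bases with Npcd on the same strand.

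**Figure D2:**
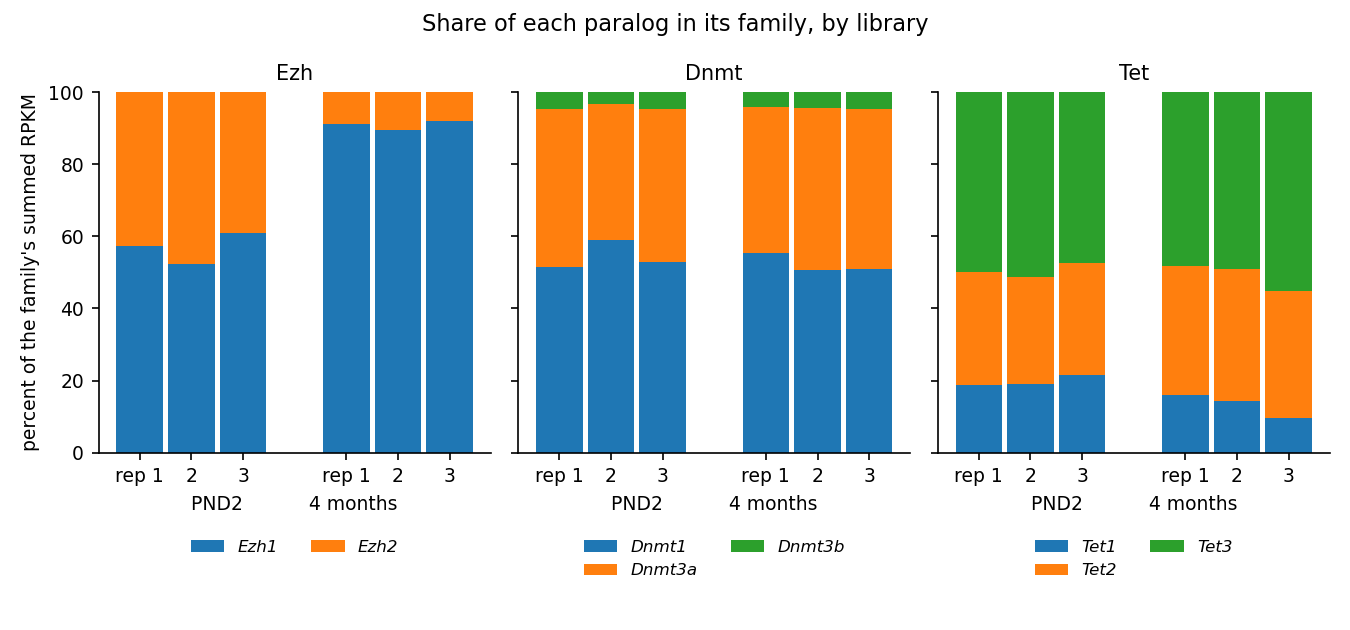
Stacked bars of the percent that each gene gives to the summed RPKM of its family, 1 bar per library, for Ezh, Dnmt and Tet. Ezh1 takes 89.5 to 92.0% of its family at 4 months, while the Dnmt bars look alike at both ages.

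Rnf2 and Pcgf2 led the falls in the PRC1 core. Rnf2, which encodes the ubiquitin ligase Ring1b, fell from 28.9 to 36.0 RPKM at PND2 to 12.5 to 14.1 at 4 months (log2 fold change -1.23, adjusted p = 0.000418 by limma). Pcgf2, also known as Mel18, fell by 1.51 on the log2 scale. Bmi1, the related partner of Rnf2, had 13.2 to 18.6 RPKM at PND2 and 13.7 to 20.3 at 4 months, with overlapping ages (log2 fold change 0.05, adjusted p = 0.854 by limma). Of the 8 RING and PCGF genes, 4 fell and 0 rose.

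Markers of some other cell types also rose between the ages. All 4 smooth muscle genes rose, and their sum went from 7045 to 8127 RPKM at PND2 to 15929 to 26753 at 4 months, with the highest value in replicate 1, the library with the most Cbx7 and Ezh1. Of the adipocyte genes 4 of 5 rose, with Cidec and Lep at 0 in every PND2 library. The adipocyte sum was 63.7 to 147 RPKM at PND2 and 122 to 436 RPKM at 4 months. Its highest value was in replicate 2, the 4 month library with the least Cbx7 and Ezh1. Of the macrophage genes 3 of 4 rose, from a sum of 65.4 to 86.8 RPKM to 129 to 160 RPKM. The log2 fold change of Cbx7 was 2.99 without 4 month replicate 1 and 3.26 without 4 month replicate 2. The part of these cells in the rise was not tested.

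Dnmt3a was the most abundant of the 10 genes at PND2 and lay below Cbx7 and Ezh1 at 4 months. Dnmt3a (ENSMUSG00000020661, chromosome 12 of mm10 from 3806007 to 3914443) had 18.0, 22.2 and 21.7 RPKM at PND2 and 9.76, 10.8 and 9.44 RPKM at 4 months, so every library of 4 months lay below 11 RPKM. Its mean was 2.07-fold lower at 4 months, with a log2 fold change of -1.04 (SE 0.12, adjusted p = 0.00099 by limma). Dnmt3b (ENSMUSG00000027478, chromosome 2 of mm10 from 153649450 to 153687730) was about an order of magnitude rarer, at 1.98, 2.05 and 2.49 RPKM and 0.996, 1.03 and 1.01 RPKM, and fell 2.15-fold (log2 fold change -1.03, SE 0.22, adjusted p = 0.010 by limma). The ratio of Dnmt3a to Dnmt3b was 9.56 ± 1.12 at PND2 and 9.87 ± 0.555 at 4 months (SD, n = 3), and the ages overlapped (exact permutation p = 0.7). On the log2 scale this ratio differed by 0.05, and by -0.01 with 0.1 added to both values.

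The maintenance methyltransferase Dnmt1, which copies methylation onto new strands after replication, fell in the same range. It had 21.3, 35.1 and 27.2 RPKM at PND2 and 13.4, 12.1 and 10.9 RPKM at 4 months (log2 fold change -1.17, adjusted p = 0.00323 by limma). The summed RPKM of the 3 methyltransferase genes was 41.4 to 59.4 at PND2 and 21.3 to 24.2 at 4 months. Dnmt3a made up 37.5 to 43.6% of that sum at PND2 and 40.4 to 45.1% at 4 months. Dnmt3l, the germline cofactor, stayed below 0.2 RPKM in every library.

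Hells had the largest fall of the 10 genes. Hells (ENSMUSG00000025001, chromosome 19 of mm10 from 38930915 to 38971051) had 3.61, 5.46 and 4.08 RPKM at PND2 and 0.572, 0.536 and 0.527 RPKM at 4 months. The lowest PND2 library was above 3 RPKM and no 4 month library reached 0.6. The mean was 8.04-fold lower at 4 months, and the log2 fold change was -2.78 (SE 0.24, adjusted p = 0.000272 by limma). Cdca7, which encodes the partner that activates the Hells protein, fell from 3.90, 5.88 and 7.10 RPKM to 0.761, 0.774 and 0.550 RPKM (log2 fold change -2.82). Uhrf1, which guides Dnmt1 to freshly copied DNA, fell from 6.57 to 9.86 RPKM to 0.714 to 0.880 RPKM. At -3.05 its log2 fold change was the largest fall among the 47 other listed genes. In contrast Zbtb24, a transcription factor known to drive Cdca7, had overlapping ages at 9.41 to 11.3 and 7.83 to 10.3 RPKM.

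Ezh2, Hells, Uhrf1 and Dnmt1 fell, and so did genes of dividing cells. All 17 proliferation genes fell, with log2 fold changes from -4.07 for Cdk1 to -0.49 for Pcna and a median of -2.69. Top2a fell by 3.38 on the log2 scale. The summed level of the list was 193 to 242 RPKM at PND2 and 68.6 to 69.8 at 4 months. PND2 replicate 3 had the least Mki67 (8.92 RPKM against 16.7 and 15.6) and the least Ezh2, but not the least Hells. PND2 replicate 1 had the least Hells and the least Dnmt1, and the proliferation genes were split in it. It had the least Mcm2 (6.05 RPKM against 10.6 and 11.2), Mcm3, Mcm5, Mcm6 and Pcna. It had the most Mki67, Top2a (17.8 RPKM against 16.2 and 8.75), Cdk1 (19.7 RPKM against 15.6 and 10.6), Ccnb1, Ccnb2, Ccna2, Bub1 and Birc5. Endothelial genes (5 of 5) and neutrophil genes (4 of 4 tested) fell as well, endothelial genes from a sum of 297 to 408 RPKM to 179 to 196 RPKM and neutrophil genes from 24.5 to 31.0 RPKM to 0.498 to 1.11 RPKM. Of 5 cardiomyocyte genes 2 fell and 3 did not pass, and their sum went from 12313 to 13197 RPKM to 5316 to 7594 RPKM. Of 3 melanocyte genes 2 fell and 1 did not pass, and their sums overlapped, at 37.9 to 78.3 RPKM at PND2 and 22.4 to 41.4 at 4 months. The part of these cells in the falls was not tested.

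Of the Tet genes, which encode the oxidizing enzymes, Tet1 and Tet3 fell and Tet2 did not pass the test. Tet1 (ENSMUSG00000047146, chromosome 10 of mm10 from 62804570 to 62899118), the rarest, had 3.47, 3.99 and 4.29 RPKM at PND2 and 2.29, 2.00 and 1.14 RPKM at 4 months. All PND2 libraries were above 3 RPKM and all 4 month libraries below it, with replicate 3 of 4 months lowest. Its log2 fold change was -1.12 (SE 0.28, adjusted p = 0.0196 by limma). Tet3 (ENSMUSG00000034832, chromosome 6 of mm10 from 83362373 to 83459084), the most abundant, went from 9.17, 10.7 and 9.47 RPKM to 6.92, 6.79 and 6.46 RPKM, a fall of 0.53 on the log2 scale (SE 0.12, adjusted p = 0.0148 by limma). Tet2 (ENSMUSG00000040943, chromosome 3 of mm10 from 133463679 to 133545139) had 5.72, 6.17 and 6.27 RPKM at PND2 and 5.11, 5.03 and 4.14 RPKM at 4 months. Its log2 fold change was -0.34 with a 95% interval from -0.70 to 0.01 and a limma adjusted p of 0.118, although the ages did not overlap. With voom on the recovered reads its adjusted p was 0.0426. The calls of Tet1 and Tet3 were near the threshold. Tet1 lost its call without PND2 replicate 2 (adjusted p = 0.056 by limma), without PND2 replicate 3 (0.0671) and with the unequal-variance test (0.138). Tet3 lost its call without PND2 replicate 2 (adjusted p = 0.0569 by limma), without 4 month replicate 3 (0.0525) and with the unequal-variance test (0.0542). The ratio of Tet2 to Tet1 was 1.55 ± 0.0934 at PND2 and 2.80 ± 0.744 at 4 months, and that of Tet3 to Tet1 was 2.51 ± 0.267 and 4.03 ± 1.44 (SD, n = 3). Both had an exact permutation p of 0.1 and 0.125 adjusted over the 5 ratios, and both share Tet1. Tdg, the glycosylase that removes the oxidized bases, fell from 14.3 to 16.4 RPKM to 9.73 to 10.2 RPKM (log2 fold change -0.63, adjusted p = 0.00419 by limma).

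By gene RPKM, which depends on the exonic lengths used, the order of means at PND2 was Dnmt3a, Ezh1, Tet3, Ezh2, Cbx2, Tet2, Hells, Tet1, Cbx7 and Dnmt3b. Ranges overlapped between neighbours for Ezh1 and Tet3, Tet3 and Ezh2, Cbx2 and Tet2, Hells and Tet1, and Cbx7 and Dnmt3b. At 4 months the order was Cbx7, Ezh1, Dnmt3a, Tet3, Tet2, Cbx2, Ezh2, Tet1, Dnmt3b and Hells, with overlap between Cbx7 and Ezh1, Cbx2 and Ezh2, and Ezh2 and Tet1. Cbx7 moved from next to last to the top and Hells from the middle to the end.

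Of the 47 other genes in the Polycomb and DNA methylation lists, 20 fell, 2 rose and 25 did not pass, where 21.1% and 14.7% of all genes tested were called lower and higher. Their median log2 fold change was -0.30 beside -0.14 over all genes tested. The falls numbered 12 without PND2 replicate 2, without PND2 replicate 3 or without 4 month replicate 3, and 14 with 5 rises under median scaling. Asxl3, a rare cofactor of a deubiquitinase, followed Uhrf1 and Cdca7 among the falls, from 0.612 to 0.896 RPKM to 0.165 to 0.209 RPKM. The rises were those of Phf1 and Mbd2, a reader of methylated CpG (39.3 to 43.5 RPKM at PND2 and 52.9 to 57.3 at 4 months, log2 fold change 0.43). Among the genes that erase Polycomb marks, the demethylase gene Kdm6b fell from 15.9 to 20.9 RPKM to 12.5 to 14.0 RPKM (adjusted p = 0.0217 by limma). Kdm6a, an X-linked gene that escapes inactivation, had 14.2, 8.37 and 7.50 RPKM at PND2 and 8.60, 13.7 and 8.84 at 4 months (adjusted p = 0.866 by limma). It was high in the 2 libraries with the most Xist, at 109 and 110 RPKM.

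**Figure D3:**
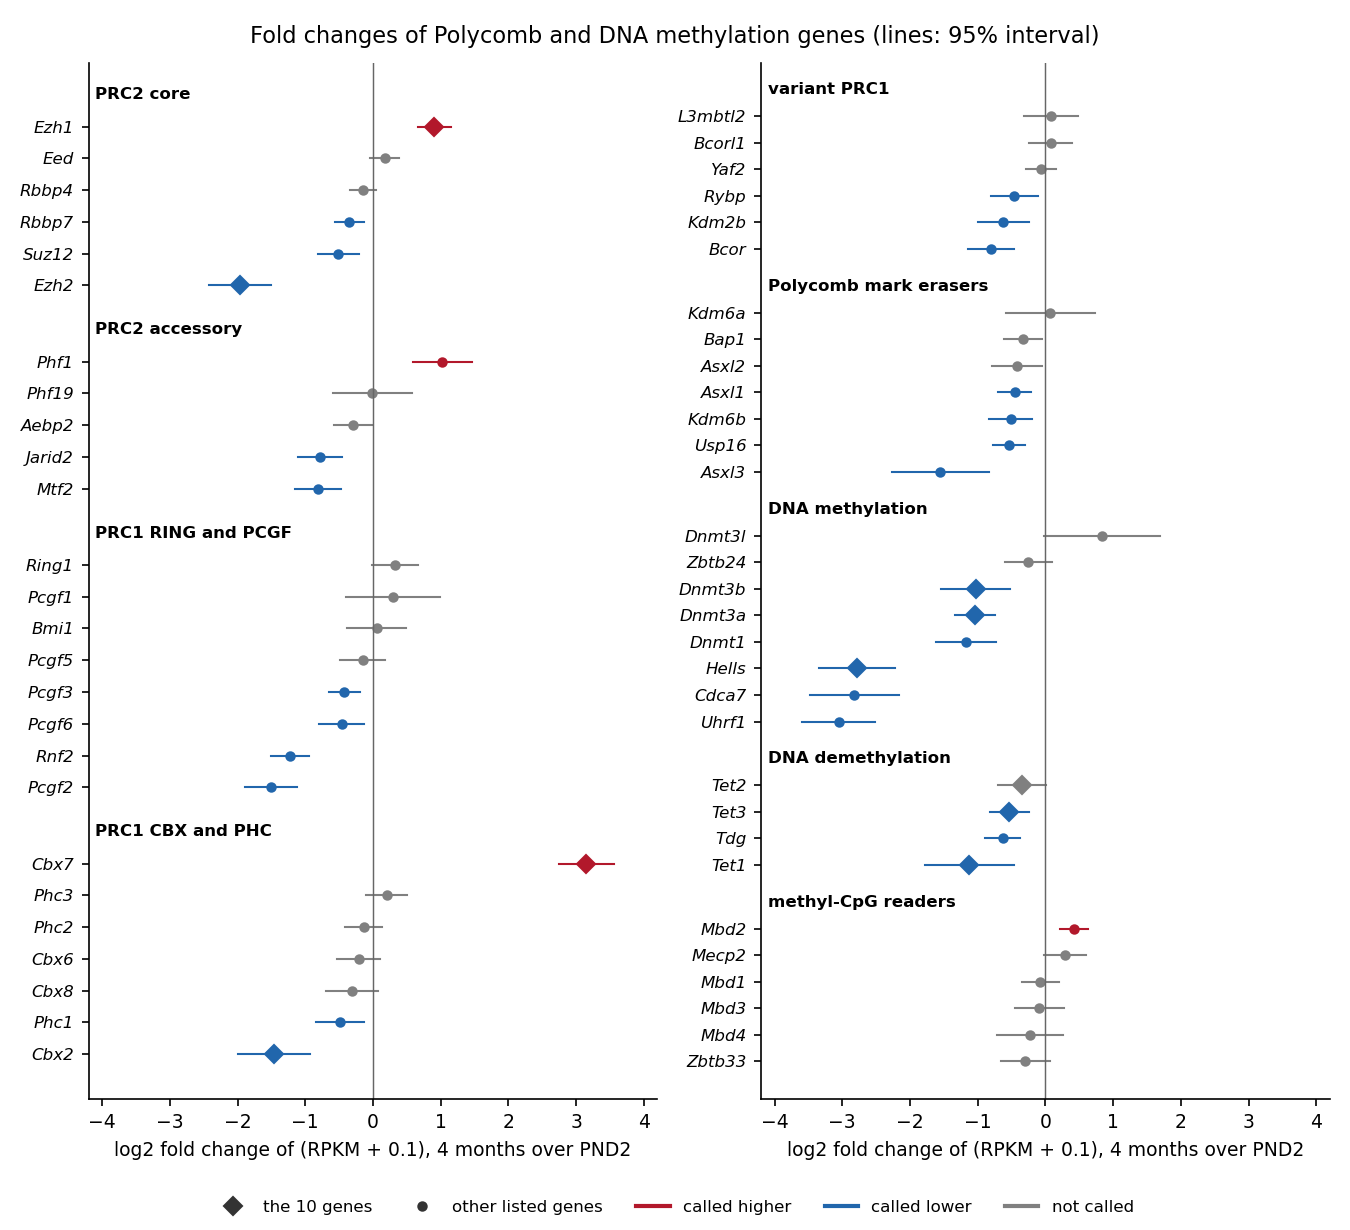
Log2 fold changes of (RPKM + 0.1), 4 months over PND2, with 95% intervals, for the 10 genes (diamonds) and the 47 other listed genes (circles) by list. Red and blue mark genes called higher and lower at a limma adjusted p under 0.05, and Cbx7 at 3.15 and Uhrf1 at -3.05 lie at the ends.

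Genes that Polycomb or DNA methylation is known to keep silent were mostly still near 0 at 4 months. Of 10 Polycomb target genes, 8 were below 0.2 RPKM in every library, among them Pax6, Olig2 and Lhx2. The cell cycle inhibitor genes Cdkn2a and Cdkn2b were the exceptions. Cdkn2a had 0.0656, 0.224 and 0.0583 RPKM at PND2 and 0.982, 0.860 and 3.04 RPKM at 4 months (log2 fold change 2.86, adjusted p = 0.00658 by limma). Its PND2 values rest on 3, 8 and 2 reads, and it passed the filter only through its 4 month libraries, where it is high. Cdkn2b rose from 1.79, 2.31 and 2.38 RPKM to 8.19, 4.94 and 9.05 RPKM (log2 fold change 1.70, adjusted p = 0.00281 by limma). Of 10 germline genes that DNA methylation silences, 9 stayed below 0.3 RPKM. Sycp3, the exception, shares 52.2% of its exonic bases with Chpt1 on the opposite strand, so its reads cannot be assigned.

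Exons were compared next, because several of these genes have long and short forms. The 10 genes hold 314 distinct exons, and 265 passed the filter of 1 RPKM in at least 3 libraries. By limma, 48 were higher at 4 months and 120 lower, where 9.19% and 14.1% of all 249619 exons tested were called. All 48 higher exons belonged to Cbx7 (21 of its 21 tested) and Ezh1 (27 of 38). The lower exons were mainly those of Dnmt3a (41 of 46), Ezh2 (38 of 40) and Hells (27 of 28). Among the other genes 3 of 5 exons were lower for Cbx2, 2 of 24 for Dnmt3b, 5 of 21 for Tet1, 3 of 16 for Tet3 and 1 of 26 for Tet2. Across the 265 exons 64 had a positive and 201 a negative log2 fold change. An exon could pass the filter through 3 libraries of 1 age alone, so these counts can lean towards the age where a gene is high. Hells, for example, had gene levels of only 0.527 to 0.572 RPKM at 4 months.

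All 6 exons of the Cbx7 principal transcript rose, by 3.24 to 5.93 on the log2 scale, and none was called for exon use. Exon 2 (chromosome 15 of mm10 from 79930586 to 79930629), within the part that encodes the chromodomain, had 0.583, 3.72 and 0.777 RPKM at PND2 and 91.9, 85.0 and 66.7 RPKM at 4 months. These rest on 7 reads in all at PND2 and 325 at 4 months. The long last exon, of 2667 bases with most of the reads, went from 3.86, 3.29 and 3.50 RPKM to 41.7, 29.3 and 33.1 RPKM, a 9.77-fold rise. Exon 2 had an adjusted p for exon use of 0.881 by limma's diffSplice, and 0.563 with voom weights. Apobec3, on the opposite strand with up to 7.90 RPKM, shares 100 exonic bases with Cbx7, and the study does not state whether strand was used in counting.

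Ezh2 fell along its whole length. Of the 20 exons of its principal transcript 19 were tested and 19 fell, with log2 fold changes from -3.10 to -1.51. The first exon was not tested and had 24 reads at PND2 and 0 at 4 months, which allows up to 3 reads. All 21 exons of the Ezh1 principal transcript had a positive log2 fold change, between 0.57 and 1.66, and 17 passed. In Hells 20 of 21 exons tested fell, under a filter that an exon could pass through PND2 alone.

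Dnmt3a is known in a long form and in a short form (Dnmt3a2) that starts from an internal promoter and is typical of germ and stem cells. The first exon of the short form, on chromosome 12 of mm10 from 3891728 to 3891860, had 0, 1 and 2 reads in the PND2 libraries and 0 in each 4 month library. Exons 2 to 6 of the principal transcript, which lie before that start, had means of 17.7 to 60.0 RPKM at PND2 and 7.92 to 20.3 at 4 months. Exons 7 to 20, which lie after it, had means of 27.4 to 47.5 RPKM at PND2 and 9.42 to 20.5 at 4 months, within or near the same ranges. First exons of the long form were also thinly covered, at 3.38, 7.20 and 5.63 RPKM at PND2 for the best covered of them (chromosome 12 from 3807030 to 3807120). Whether exon levels before and after the internal start differ was not tested.

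Tet1 has a long form whose exon 2 encodes the CXXC domain that binds CpG, and a short form without it. Exon 2 (chromosome 10 of mm10 from 62878152 to 62880133, 1982 bases) had 0.725, 0.645 and 0.241 RPKM at PND2 and 0, 0.0848 and 0.0174 RPKM at 4 months, from 109 reads and 5 reads in all. The last exon had 4.70, 4.58 and 5.37 RPKM at PND2 and 3.21, 2.72 and 1.58 at 4 months. A noncoding first exon further downstream (62865136 to 62865304) had 2.43, 3.68 and 1.21 RPKM at PND2 and 0.951, 0.249 and 0.409 at 4 months. At both ages exon 2 was lower than this exon and the last exon in every library.

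In Tet2 the ages lay apart at the start of the coding sequence and overlapped at the last exon. Exon 3, the large exon that opens the coding sequence (chromosome 3 of mm10 from 133485512 to 133488717), had 5.94, 6.97 and 7.14 RPKM at PND2 and 3.62, 4.19 and 2.41 at 4 months, a difference of -0.98 on the log2 scale (adjusted p = 0.0659 by limma). The last exon (133463679 to 133468190) had 10.8, 12.1 and 12.2 RPKM and 12.2, 11.6 and 10.6 RPKM, a difference of -0.03 on that scale. In limma's diffSplice, which asks whether an exon departs from the rest of its gene, exon 3 had an adjusted p of 1 without weights and 0.0261 with voom weights. The fit without weights called 5 exons of the 10 genes, of 5 to 91 bases, where 1.31% of all 243348 exons were called. With voom weights exon 3 of Tet2 was the single call, where 0.562% of all exons were called. In Tet3 exons 5 to 7 fell by 1.18 to 1.44 on the log2 scale and the last exon had -0.59, without an exon use call.

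Dnmt3b is known for splice forms that skip internal exons, some of them without activity. Exon 11 of its principal transcript, of 60 bases (chromosome 2 of mm10 from 153670849 to 153670908), had 1 read at PND2 and 1 at 4 months, while exons 10 and 12 had 35 and 39 reads at PND2 and 13 and 12 at 4 months. Near the 3′ end, exons 22 and 23 had 1.11 and 1.10 RPKM at PND2, beside 1.86 RPKM for exon 21 and 3.02 RPKM for exon 24. At 4 months exon 22 had 0 reads and exon 23 had 8. These exons were too thinly covered for a test of their use.

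**Figure D4:**
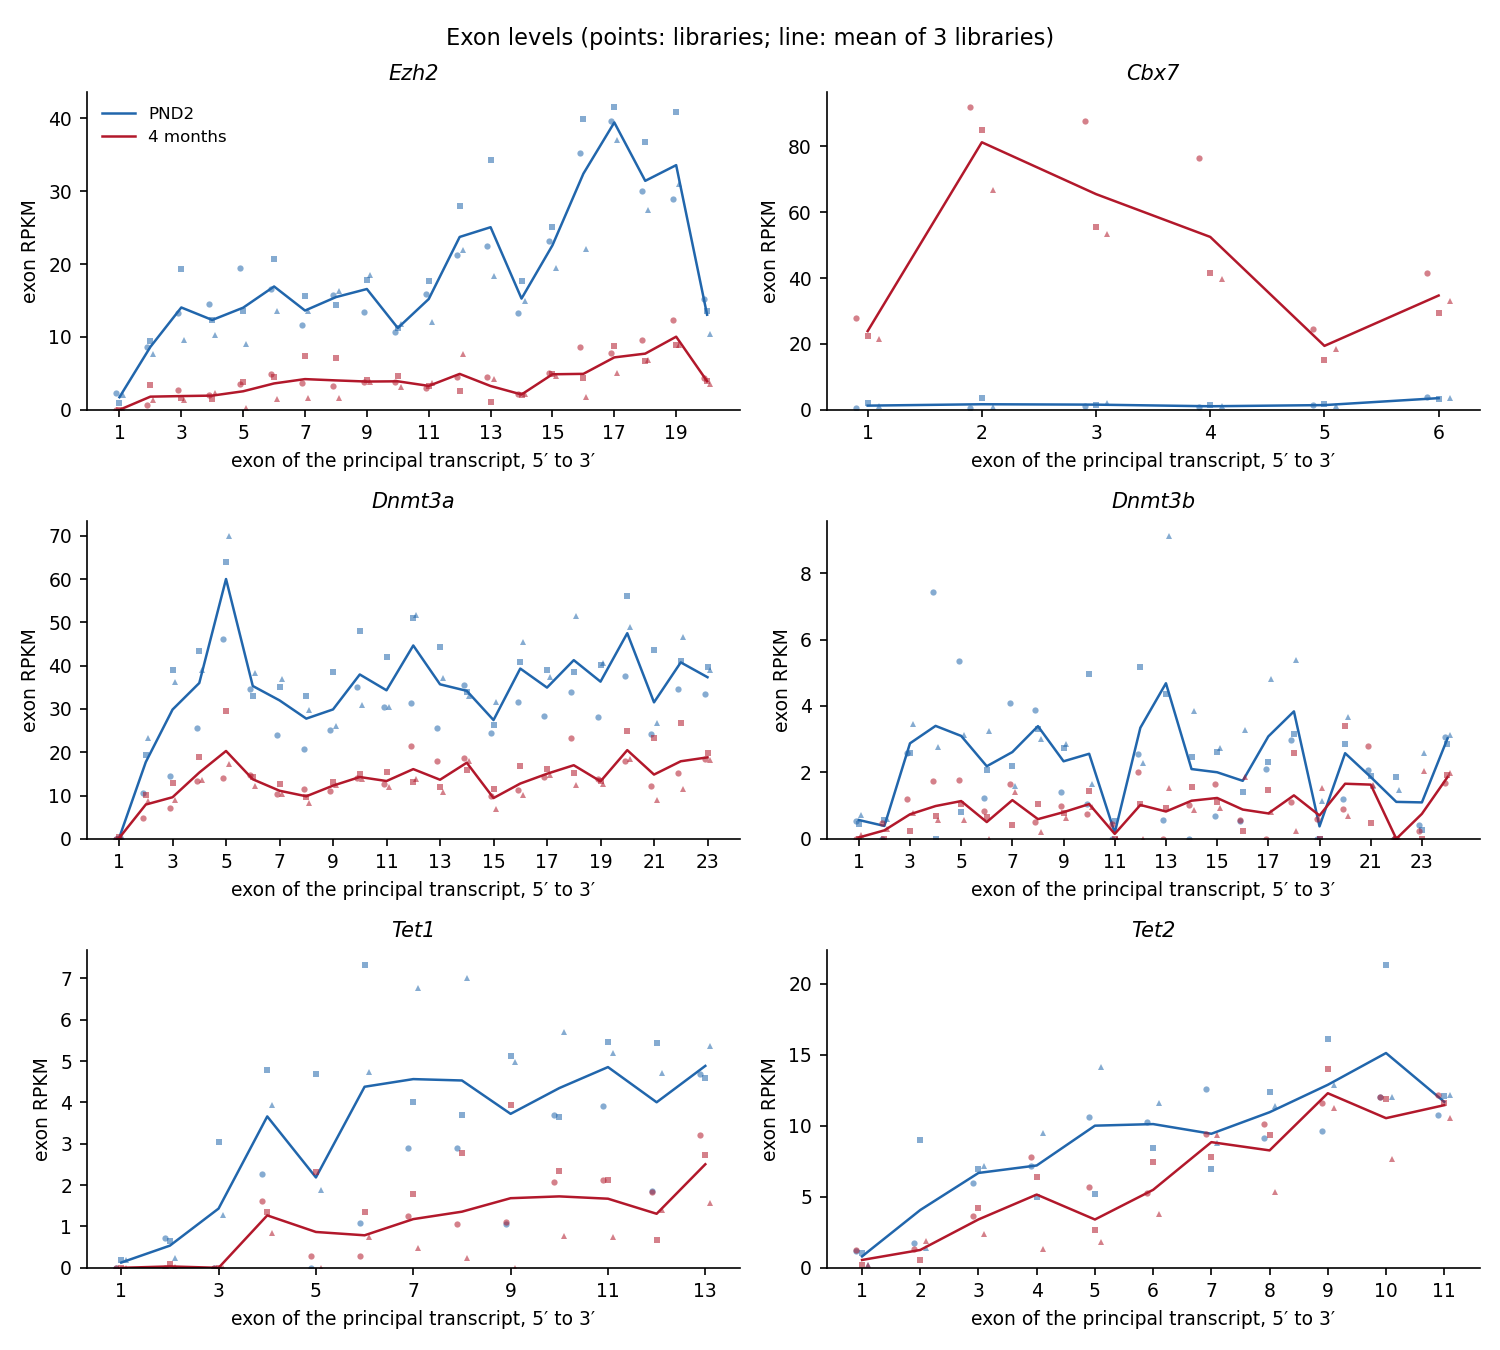
Exon RPKM along the principal transcript, from 5′ to 3′, for 6 of the genes, with points for libraries and lines for the means of 3 libraries at PND2 (blue) and 4 months (red). The lines keep apart along Ezh2, Cbx7 and Dnmt3a and meet at the last exon of Tet2, where the means are 11.7 and 11.5 RPKM.

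Promoters were compared as sequence, because Ezh2, Hells and the proliferation genes fell together, and E2F factors are known to act on such genes through words of the form searched here. RefSeq promoters (GRCm38.p6, 250 bases before to 50 bases after the start) were found for 9 of the 10 genes, 11 promoters in all. They were searched on both strands for the E2F words TTTCCCGC, TTTGGCGC, TTTCGCGC and TTTGCCGC, which do not overlap one another. Hells and Ezh2 held a word, and the other 9 promoters held none, where 2.26% of all 32851 promoters hold one. In Hells it begins 62 bases before the start and in Ezh2 3 bases after it. Of the 6 promoters of Dnmt1, Uhrf1 and Cdca7, looked at after their values were seen, 3 held such a word, 1 for each gene, and 3 held none. A match is not a binding site, and binding was not measured. The 11 promoters held 17 to 57 CpG in their 300 bases, where the median promoter of the table held 7. Each of the E2F words holds a CpG, so the 2.26% is not a share among promoters of like CpG content. The sequences of the largest fall, of the Ezh pair and of the largest rise follow, 5′ to 3′, with E2F words in capitals.
Hells, chr19:38930740-38931039, plus strand: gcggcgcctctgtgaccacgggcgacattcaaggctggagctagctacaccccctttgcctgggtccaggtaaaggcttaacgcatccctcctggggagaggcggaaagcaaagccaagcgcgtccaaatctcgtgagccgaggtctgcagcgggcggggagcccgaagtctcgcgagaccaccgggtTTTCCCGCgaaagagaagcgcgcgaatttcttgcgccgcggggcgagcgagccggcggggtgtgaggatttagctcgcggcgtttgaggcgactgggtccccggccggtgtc
Ezh2, chr6:47594981-47595280, minus strand: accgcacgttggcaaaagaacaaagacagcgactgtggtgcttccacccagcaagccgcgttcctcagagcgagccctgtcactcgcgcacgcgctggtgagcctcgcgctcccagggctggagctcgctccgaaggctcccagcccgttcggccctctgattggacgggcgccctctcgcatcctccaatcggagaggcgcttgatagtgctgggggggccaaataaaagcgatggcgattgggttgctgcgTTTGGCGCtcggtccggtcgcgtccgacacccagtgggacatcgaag
Ezh1, chr11:101226414-101226713, minus strand: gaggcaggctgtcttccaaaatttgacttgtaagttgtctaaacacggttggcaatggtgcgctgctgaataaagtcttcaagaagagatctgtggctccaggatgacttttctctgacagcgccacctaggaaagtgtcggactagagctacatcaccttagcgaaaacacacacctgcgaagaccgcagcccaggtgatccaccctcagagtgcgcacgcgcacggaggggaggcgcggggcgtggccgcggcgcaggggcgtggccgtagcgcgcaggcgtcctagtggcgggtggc
Cbx7, chr15:79932597-79932896, minus strand: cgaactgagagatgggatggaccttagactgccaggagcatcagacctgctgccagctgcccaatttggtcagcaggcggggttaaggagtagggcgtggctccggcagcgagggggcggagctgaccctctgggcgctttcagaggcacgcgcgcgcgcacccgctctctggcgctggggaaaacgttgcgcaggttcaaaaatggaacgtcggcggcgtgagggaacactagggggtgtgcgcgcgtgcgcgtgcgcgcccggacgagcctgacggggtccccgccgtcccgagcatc

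The genes most like 3 of the members in pattern were sought among the 20000 genes with a mean of at least 1 RPKM, by the root mean square difference of mean-centred log2(RPKM + 0.1) over the 6 libraries. For Hells the nearest were Lmnb1 (0.121), Chaf1b (0.136), Tead2 (0.153), Uhrf1 (0.167) and the pseudogene Gm5648 (0.171). Lmnb1 encodes a nuclear lamin and Chaf1b a subunit of the chromatin assembly factor that works at replication forks. For Cbx7 they were C1s2, listed under 2 overlapping gene IDs (0.130 and 0.138), C1s1 (0.141), Ntng2 (0.157) and Gbp2 (0.171), and C1s1 encodes a complement protease. For Ezh2 all 5 were predicted genes of chromosome 14 (Gm3002, Gm2956, Gm3411, Gm8113 and Gm3194, at 0.0586 to 0.124), whose reads may be shared between similar copies. These are likenesses over 6 libraries of 2 ages, and any gene with a change of like size scores well.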

How the data were processed

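Total RNA of 6 pools of aortic valves was sequenced as paired reads from a stranded TruSeq library. After filtering and trimming, the authors used TopHat 2.1.0 to align reads to mm10 and easyRNASeq 2.4.7 to count them on Ensembl release 83. They deposited RPKM values per gene and per exon, before their minimum of 50 reads and floor of 10 reads. Multiplying RPKM by exonic length and library total gave whole reads, within 0.01, for 100% of the values. Summed over genes, these reads came to 2.31 to 2.36 times the library total. Some may thus be counted more than once, and read numbers given here may overstate separate reads. The reason was not tested. Whether counting used strand is not stated, and limits on reads cover counting error only. Library numbers name samples, and p-values measure the spread between pools.

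Genes with at least 0.1 RPKM in 3 libraries were fitted on log2(RPKM + 0.1) with limma 3.58.1 in R 4.3.3, with eBayes and a trend in the variance. Tests were 2-sided with Benjamini-Hochberg adjustment over all genes, and a gene was called at an adjusted p under 0.05. Values on this scale understate the change of low genes. Exons with at least 1 RPKM in 3 libraries were fitted likewise, and exon use was tested with diffSplice. In simulated data the gene fit found 100% of 200 planted genes with 26 false calls and the exon fit 97% with 14. The planted changes were all large and of equal size, in genes or exons with many reads and a fixed spread. These shares thus do not tell how often smaller changes or thinly covered exons would be found. The test of exon use made 910 false calls, and 7 with voom weights, so single exon use calls are uncertain. Alternatives were other pseudocounts, filters, scalings and tests, a replicate block, and each library left out in turn. Transcripts were taken from GENCODE M21.

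Besides the 10 genes, named genes are fixed partners (1 is not reported here), the 3 largest rises (2 were called) and falls of the other listed genes, 7 proliferation or inhibitor genes and the 5 nearest patterns, and other listed genes were chosen after their values were seen. The members, lists and tests were chosen with earlier results of these data known. Python 3.11.15, pandas 2.3.3 and matplotlib 3.10.9 served for tables and plots.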

Additional observations from a re-analysis of the deposited data

How the results depend on the processing

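Across 17 alternative gene settings every one of the 10 genes kept its direction, and the count called higher stayed at 2. The count called lower was 5 to 7 with 1 library left out and 3 with the per-gene unequal-variance test, which calls 1466 genes higher and 1942 lower in all. That test lost Cbx2 (adjusted p = 0.0566), Dnmt3b (0.0554), Tet3 (0.0542) and Tet1 (0.138). Tet1 also lost its call without PND2 replicate 2 (adjusted p = 0.056) and PND2 replicate 3 (0.0671), and Tet3 without PND2 replicate 2 (0.0569) and 4 month replicate 3 (0.0525). With voom 8 genes were called lower, Tet2 being added. Of the 47 other listed genes, 12 were called lower with the unequal-variance test, and 12 to 18 with 1 library left out, against 20. Rises among them numbered 5, and falls 14, with median scaling, which moved the median over all genes from -0.14 to -0.02 (log2), and 4 with quantile normalization. The same numbers did not pair the libraries (correlations of deviations 0.0439, -0.0608 and -0.160). With a replicate block 12 other listed genes were called lower, and Tet3 lost its call (adjusted p = 0.0506). Member exons called lower fell to 71 when a mean of 50 reads was required, which left 135 exons. Exon use calls were 0 with that filter, 3 with a pseudocount of 1, 1 with voom weights and 1 to 7 with 1 library left out. Among the paralog ratios the sign changed for Dnmt3a to Dnmt3b, to -0.0124 with 0.1 added to both values, and it ranged from -0.0116 to 0.144 with 1 library left out. Unless named here, the cause of a change was not tested. Depth limits the rare genes: Dnmt3b exons and the Tet1 exon 2 rest on few reads.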
